A study of Homo sapiens with 12 samples.

Results

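The replication-dependent histone genes are the protein-coding genes for the linker histones H1-1 to H1-6 and for the core histones with symbols of the series H2AC, H2BC, H3C and H4C. All 69 such genes were found among the 60617 genes of the count table: 6 for H1, 17 for H2A, 18 for H2B, 13 for H3 and 15 for H4. They were found by their symbols, 67 through a table of gene names and 2 (H2AC18 and H2AC19) through their older names. On GRCh38, 55 lie on chromosome 6, 13 on chromosome 1 and 1, H4C16, on chromosome 12.

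The libraries came from A549, an established human lung adenocarcinoma line grown in RPMI 1640 with serum, in 4 groups of 3. The groups were wild-type cells (WT), cells in which YTHDF1, a reader of N6-methyladenosine in RNA, was knocked out (YTHDF1-KO), cells treated with small interfering RNA against ARID1A, a subunit of the SWI/SNF chromatin remodeller (si-ARID1A), and cells with both changes (the combined group). The sample titles speak of a YTHDF1 knockdown where the genotype field says knockout, whether the knockout was 1 clone is not said, and no control siRNA is named in the labels. A response to siRNA treatment itself therefore cannot be told apart from a response to low ARID1A. The titles call the libraries biological replicates without saying that they were separate cultures, so p-values measure the spread between these libraries. The comparisons ask how histone RNA levels differ when YTHDF1, ARID1A or both are reduced.

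Histones package DNA: pairs of H2A, H2B, H3 and H4 form the nucleosome core and H1 binds the linker DNA between cores. The replication-dependent genes are switched on in S phase, through NPAT at the histone locus body, to supply histones for newly made DNA, and most of their messages end not in a poly(A) tail but in a conserved stem-loop bound by SLBP, the stem-loop binding protein. Some of these genes also make polyadenylated messages that run past the stem-loop, above all in cells that have left the cycle or differentiated.

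The stem-loop is shown because it is the element these genes share and it marks where the replication-dependent message ends. A match (6 paired bases around a loop of 4 bases) was found in the GENCODE 29 transcripts of 30 of the 67 members that had a model there, and in 101 of 19855 other protein-coding genes (0.509%). Its 16 bases came in 5 versions, and each is printed once below in 26 bases of transcript, written as DNA from 5′ to 3′ with the stem-loop in capitals.
H2AC6: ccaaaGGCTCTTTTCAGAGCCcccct
H4C8: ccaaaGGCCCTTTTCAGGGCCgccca
H2BC5: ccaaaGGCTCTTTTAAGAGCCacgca
H4C14: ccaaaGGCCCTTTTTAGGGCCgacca
H3C6: ccaaaGGCTCTTCTCAGAGCCaacca
The H2AC6 version was found in 17 members, the H4C8 version in 5, the H2BC5 version in 4, the H4C14 version in 3 and the H3C6 version in 1, H3C6 itself. In the transcript of each gene that ran furthest past it, the sequence went on after the stem-loop for 1128 bases in H2AC6, 1655 in H4C8, 1167 in H4C14 and 1862 in H3C6, and for 39 bases in H2BC5. Those of H2AC6, H4C8 and H4C14 are annotated as targets of nonsense-mediated decay. Other transcripts, annotated as protein-coding, ended 1114 bases after the stem-loop in H2AC6, 18 or 630 in H4C8 and 194 in H4C14, and another H3C6 transcript ended after 5. The longest H2BC5 transcript, of 789 bases, held no match. The models of H1-2 and H2BC12 hold 642 and 381 bases, the coding bases only, and no match was found in them. A model that stops at the coding bases cannot show a stem-loop that lies after them. The 30 of 67 is therefore not a count of the genes that have the element.

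The promoters of 5 members whose levels are described below are shown next, since members of different classes carry different elements there. The windows searched, from RefSeq (GRCh38.p14), run from 250 bases before the start to 50 after it. The 150 bases before the start are printed. The motifs searched, on both strands, were the TATA box, the CCAAT box, the octamer and the H1 box, whose letters are given after the sequences, and their matches are in capitals.
H1-2 (chr6:26056471-26056620, minus strand): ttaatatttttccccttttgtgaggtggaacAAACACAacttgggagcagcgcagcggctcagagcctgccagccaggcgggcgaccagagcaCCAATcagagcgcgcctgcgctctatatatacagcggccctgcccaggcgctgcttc
H2AC6 (chr6:26124022-26124171, plus strand): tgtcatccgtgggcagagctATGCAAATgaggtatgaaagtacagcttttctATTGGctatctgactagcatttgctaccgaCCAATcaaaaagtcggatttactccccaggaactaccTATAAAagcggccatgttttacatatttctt
H2BC5 (chr6:26157971-26158120, plus strand): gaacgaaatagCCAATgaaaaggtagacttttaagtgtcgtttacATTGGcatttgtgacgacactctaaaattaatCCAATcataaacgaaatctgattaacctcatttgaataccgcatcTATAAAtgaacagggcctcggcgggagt
H2BC12 (chr6:27146859-27147008, minus strand): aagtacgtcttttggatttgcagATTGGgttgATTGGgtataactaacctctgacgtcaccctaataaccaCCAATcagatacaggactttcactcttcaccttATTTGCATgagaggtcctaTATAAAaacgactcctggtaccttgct
H4C8 (chr6:26285535-26285684, minus strand): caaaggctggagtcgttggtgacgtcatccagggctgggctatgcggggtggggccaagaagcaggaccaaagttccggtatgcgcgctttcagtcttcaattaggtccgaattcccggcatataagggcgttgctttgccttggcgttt
The TATA box, TATAAA, was present in the whole window of 65.6% of 64 member promoters and 11.8% of 27241 others. The CCAAT box was present in 84.4% of the members and 35.6% of the others, in all H1, H2A, H2B and H3 promoters but in 3 of 13 H4 promoters. The octamer, ATTTGCAT, was present in 40.6% of the members and 1.71% of the others, and by class in 11 of 16 H2A and 14 of 18 H2B promoters. The H1 box, AAACACA, was present in 14.1% of the members and 5.74% of the others, including all 6 H1 promoters. H4C8 matched none of the 4 motifs in this window. The matches are letters in a window and were not tested as sites.

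The libraries held 30220717 to 45042635 counts. Of the 18524 genes tested, 29 were members. Levels are given in CPM, a count scaled to the size of its library. In the order WT, YTHDF1-KO, si-ARID1A and combined group, YTHDF1 had means of 88.2, 24.8, 97.8 and 30.9 CPM and ARID1A of 164, 161, 42.5 and 54.2, so both targets were low in the groups labelled for them. All 8 A549 and epithelial markers were tested, and their summed level ran from 15960 to 18620 CPM in WT, 9199 to 9748 in YTHDF1-KO, 16330 to 20580 in si-ARID1A and 10690 to 11170 in the combined group, with KRT19 near 0 in WT (0.0314 CPM). The 11 markers of blood, endothelium and stroma summed to 36.9 to 61.9, 45.7 to 50.3, 45.8 to 63.0 and 40.9 to 56.8 CPM in the same order, mostly COL1A1, and PTPRC, CD3E and CDH5 stood at or near 0. Of the 7 tested, 2 rose in YTHDF1-KO, 2 in si-ARID1A and 4 in the combined group against WT, and 0 fell. Among the 8 A549 and epithelial markers 6 fell and 0 rose, 1 fell and 5 rose, and 5 fell and 0 rose in these comparisons. Over all genes tested 19.6%, 22.1% and 25.6% rose and 20.8%, 23% and 25.9% fell. In YTHDF1-KO AKR1B10 fell from 2613 to 346 CPM and KRT8 from 4796 to 1483. ALDH1A1, the largest part of the sum, did not pass there (7140 and 6560 CPM). ACTA2, a smooth muscle actin, had means of 3.38, 6.58, 22.1 and 13.2 CPM in WT, YTHDF1-KO, si-ARID1A and the combined group. COL3A1, a fibrillar collagen, had 0.174, 5.87, 0.417 and 5.78 CPM. WT replicate 2 had 4.85% of its counts in mitochondrial genes, against 6.81% to 8.23% in the other libraries. The part of the markers in the histone results was not tested, and counts without WT replicate 2 are given below.

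Most of the 69 genes had few counts. In 36 no library held more than 10 counts, including 10 genes with 0 counts in all 12 libraries, 29 had enough counts to be tested, 21 reached a mean of 1 CPM in some group, and 4 reached 10 CPM (H2BC12, H1-2, H2AC6 and H2BC5). The members held 66404 counts in total, 0.0149% of all counts, and 5 genes held 66.8% of these. The 40 members that were not tested held 699 counts together (1.05% of the member counts). Some of them share sequence with other histone genes or overlap other genes, as given below, so their low counts are not shown to be low levels. Of the 29 tested, 21 had 10 counts or more in every library of every group, and 3 (H1-3, H2BC7 and H3C13) reached that in a group with ARID1A siRNA and in neither group without it, so their passing of the count filter may rest on the groups in which they were higher. By class, the members tested were 3 of 6 for H1, 4 of 17 for H2A, 12 of 18 for H2B, 5 of 13 for H3 and 5 of 15 for H4. H2B took 43.6% of the member counts, H2A 20.2%, H1 15.9%, H4 11.5% and H3 8.85%. In 3 classes 1 gene held most of the counts: H1-2 held 95.9% of the H1 counts, H2AC6 79.6% of the H2A counts and H3C6 51.0% of the H3 counts. H2BC12 held 46.2% of the H2B counts and H4C9 39.8% of the H4 counts.

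**Figure D1:**
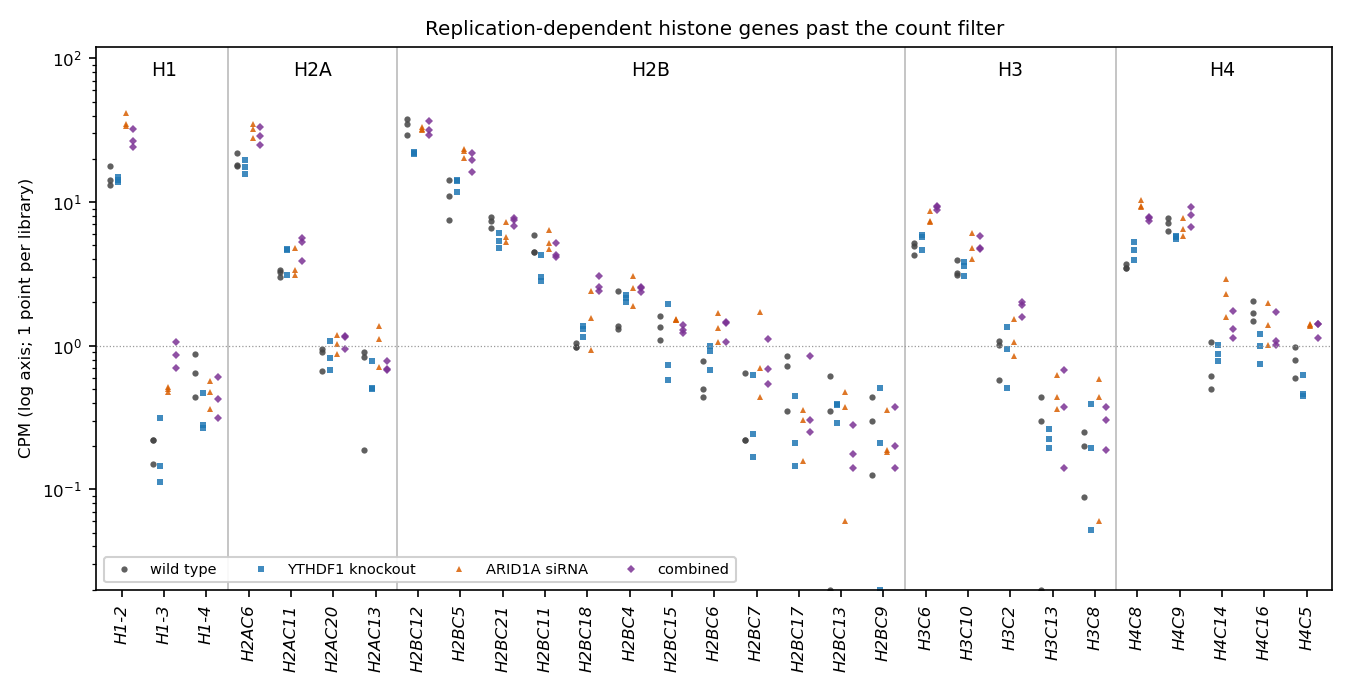
CPM on a log axis of the 29 members that were tested, by histone class, with 1 point per library and 4 groups of 3 libraries; values of 0 are drawn at the lower edge and the dotted line is 1 CPM. H2BC12, H1-2, H2AC6 and H2BC5 are the members with a group mean over 10 CPM, and the si-ARID1A points of H1-2 lie above all WT points.

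RNAs known to lack a poly(A) tail were also scarce. Of 26 such RNAs (small nuclear, small nucleolar and other short noncoding RNAs), 13 had 0 counts in all libraries, among them RN7SK, a nuclear RNA abundant in human cells, and 2 reached a mean of 1 CPM in some group. RN7SL1, the RNA of the signal recognition particle, ranged from 14.3 to 54.5 CPM. The labels name total RNA and a stranded kit and do not say whether tailed RNA was selected, and the part of RNA selection in the low histone counts was not tested. Of the 46 members whose longest GENCODE 29 transcript is under 1000 bases, 12 were tested, and of the 21 with a longer one, 16 were tested. The members with the shorter transcripts, among them H2BC12, H1-2 and H2BC5, held 53.9% of the member counts, and those with the longer ones 45.2%. By the transcript that ran furthest past the stem-loop, 15 of the 21 members with 200 bases or more after it were tested, and 4 of the 9 with fewer. In 6 of these 21 another transcript ended sooner than 200 bases after the stem-loop. Among the 9, the longest transcripts of H2BC5 (789 bases) and H2BC4 (659 bases) held no match. Being tested meant passing a filter on counts, and a longer transcript can collect more counts at the same level. Neither split by length therefore shows which message was counted. The release of the annotation used for counting is not stated, and these lengths are those of GENCODE 29.

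Set per length on these models, H2BC12 had the highest WT level, at 89.3 CPM per kilobase of exon. H1-2 followed at 23.4, H2BC5 at 12.5, H2AC6 at 11.6, H4C9 at 5.45 and H2BC11 at 5.20. The models of H2BC12 and H1-2 hold the coding bases only, so the places of both in this order are uncertain. Of the 50-base words of H2BC12, 74.1% also occur in transcripts of other histone genes. The same share was 100% for H4C14, 80.4% for H3C13 and 62.3% for H2AC13. The median over the 28 tested members searched was 1.76%, and H1-2, H3C6 and H4C8 had 0%. Reads of H2BC12, H4C14, H3C13 and H2AC13 may therefore be split with near-identical genes. Among the members not tested, the share was 100% for H2AC18, H3C14, H3C15, H4C12 and H4C15 and 97.1% for H2AC19, against a median of 0%. H2AC7 and H3C4, each with 0 counts, overlap another protein-coding gene on the same strand. H4C14 also overlaps H3C14 on the other strand, H2BC18 overlaps FCGR1A and H2BC15 overlaps H2AC15. H2BC5 and H2BC6 overlap an antisense gene, and the strand setting of the counting is not given in the sources used here.

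Summed over all members, the level was 128.2 ± 11.9 CPM in WT (SD, n = 3), 113.2 ± 1.03 in YTHDF1-KO, 187.9 ± 11.7 in si-ARID1A and 175.8 ± 15.7 in the combined group. Every library of the groups with ARID1A siRNA lay above every library of the others (163.3 to 198.1 against 112.2 to 138.8 CPM). In bulk libraries a change in the share of cells that make these RNAs and a change in RNA per cell cannot be told apart. H1 stood at 15.9 ± 2.67 CPM in WT, between 14.7 and 15.4 in YTHDF1-KO, at 37.7 ± 4.03 in si-ARID1A and 29.1 ± 4.31 in the combined group, 2.37 and 1.83 times WT in the last 2. H2A stood at 24.5 ± 1.95, 23.6 ± 2.15, 37.9 ± 3.98 and 36.2 ± 3.93 CPM in the same order. H3 stood at 9.90 ± 0.373, 10.8 ± 1.53, 15.3 ± 1.92 and 17.3 ± 0.908 CPM, and H4 at 14.2 ± 0.826, 13.1 ± 0.658, 22.1 ± 0.556 and 20.0 ± 1.19 CPM. In H1, H2A, H3 and H4 the groups with the siRNA did not overlap those without it, whereas YTHDF1-KO overlapped WT in each. H2B stood at 63.7 ± 7.13, 50.8 ± 1.08, 74.8 ± 2.23 and 73.3 ± 6.41 CPM: YTHDF1-KO (49.6 to 51.7) lay below WT (55.4 to 68.3), and the combined group (67.4 to 80.1) overlapped WT. Without H2BC12 the H2B sum was 29.6 CPM in WT and 28.8 in YTHDF1-KO, and 42.4 and 40.8 in the groups with the siRNA. Without H1-2 the H1 sum was 0.910, 0.638, 1.02 and 1.35 CPM, so the H1 difference between si-ARID1A and WT rests on H1-2. Without H2AC6 the H2A sum was 5.22 CPM in WT and 5.96 in YTHDF1-KO, and 6.26 and 7.16 in the groups with the siRNA.

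**Figure D2:**
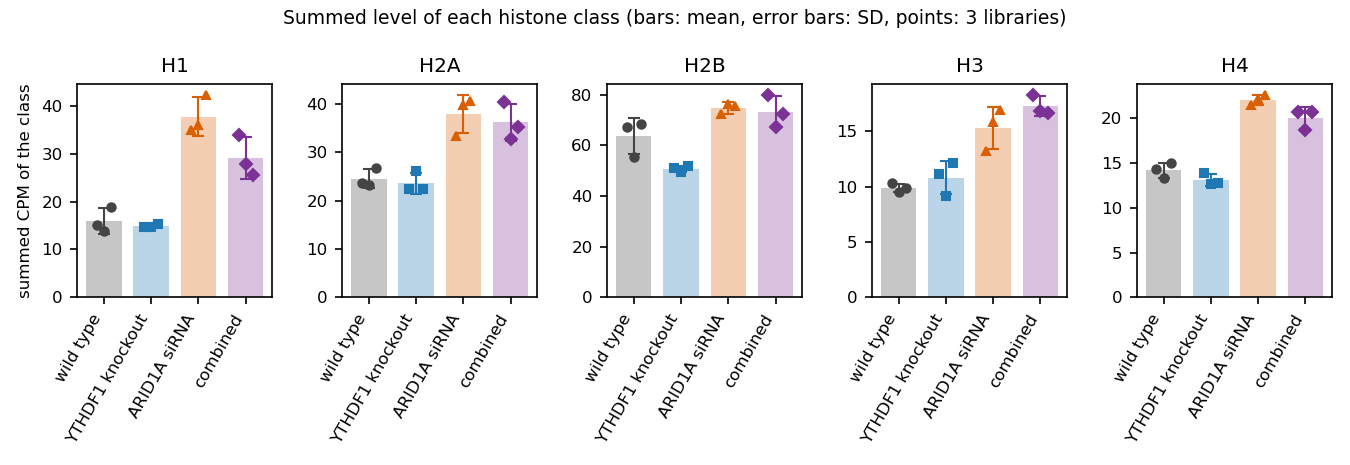
Summed CPM of the members of each histone class in each group; bars are means, error bars the SD and points the 3 libraries. H1, H2A, H3 and H4 are higher in both groups with ARID1A siRNA than in both without it, and H2B is lowest in the YTHDF1 knockout (49.6 to 51.7 CPM).

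With ARID1A silenced in otherwise unmodified cells, 10 of the 29 tested members rose and 0 fell (edgeR's quasi-likelihood test, Benjamini-Hochberg adjusted p under 0.05). Over all genes tested 22.1% rose and 23% fell. At an unadjusted p under 0.05 there were 13 rises and 0 falls among the members, and with DESeq2 12 and 0. Leaving out 1 library at a time gave 0 to 1 falls. A positive log2 fold change was seen in 21 of the 29, some of them below their SE, as in H3C13 (0.87 ± 1.02). The median log2 fold change was 0.57 over the tested members and -0.01 over all genes. By class, the rises were in 2 of 3 tested H1 genes (H1-2 and H1-3), 1 of 4 for H2A (H2AC6) and 2 of 12 for H2B (H2BC5 and H2BC6). They were in 2 of 5 for H3 (H3C6 and H3C10) and 3 of 5 for H4 (H4C8, H4C14 and H4C5). The H2B share (16.7%) was below the 22.1% of all genes and the H2A share (25%) near it. The median of the tested H2B genes was 0.15. Without WT replicate 2 the members called were 8. Without H1-3, H2BC7 and H3C13, an alternative added after seeing the data, 9 of 26 rose.

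H1-2 (chromosome 6, 26055787 to 26056428), a linker histone, read 14.2, 13.1 and 17.7 CPM in the WT libraries and 33.9, 34.9 and 41.4 in the si-ARID1A libraries, a log2 fold change of 1.30 ± 0.16 (SE, adjusted p = 2.87e-09). H4C8 (chromosome 6, 26277609 to 26285638), a gene for H4, read 3.45, 3.71 and 3.48 CPM in WT and 9.30, 9.43 and 10.4 with the siRNA (1.45 ± 0.06, adjusted p = 1.06e-08). These were the members with the smallest p, and their si-ARID1A libraries were all above 2 times the WT mean. H2AC6 (chromosome 6, 26124145 to 26139116), a gene for H2A, read 17.7, 18.2 and 22.0 CPM in WT and 27.8, 32.3 and 34.9 with the siRNA (0.72 ± 0.14, adjusted p = 1.57e-05). H2BC5 (chromosome 6, 26158146 to 26171349), a gene for H2B, read 11.1, 7.51 and 14.2 CPM in WT and 20.4, 23.2 and 22.6 with the siRNA (1.03 ± 0.27, adjusted p = 5.45e-05). H3C6 (chromosome 6, 26224199 to 26227473), a gene for H3, read 4.25, 5.17 and 4.96 CPM in WT and 7.31, 7.33 and 8.69 with the siRNA (0.70 ± 0.12, adjusted p = 0.000292). H4C14 rose from 0.729 ± 0.299 to 2.27 ± 0.659 CPM (SD, n = 3; log2 fold change 1.66 ± 0.39 SE, adjusted p = 0.00018) and H2BC6 from 0.575 ± 0.184 to 1.36 ± 0.318 CPM (1.26 ± 0.30, adjusted p = 0.00384), with the shared reads of H4C14 named above.

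H2BC12, the member with the most counts, did not pass the test (37.7, 29.3 and 35.0 CPM in WT, 33.2, 32.2 and 31.8 in si-ARID1A, log2 fold change -0.07), nor did H2BC21 (-0.27) or H4C9 (-0.07). H1-3 is 1 of the 3 members whose passing of the filter may rest on the groups with the siRNA, and its call (1.32, adjusted p = 0.0411) was lost in 12 of 19 alternatives, among them leaving out any 1 of the WT, si-ARID1A or combined libraries (adjusted p from 0.0555 to 0.121). The H4C5 call (0.81, adjusted p = 0.0362) was lost without any 1 of the si-ARID1A libraries or without WT replicate 1 or 3 (0.0699 to 0.125), and the H3C10 call (0.53, adjusted p = 0.0195) without si-ARID1A replicate 2 (0.149) or WT replicate 2 or 3 (0.0527 and 0.0561).

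**Figure D3:**
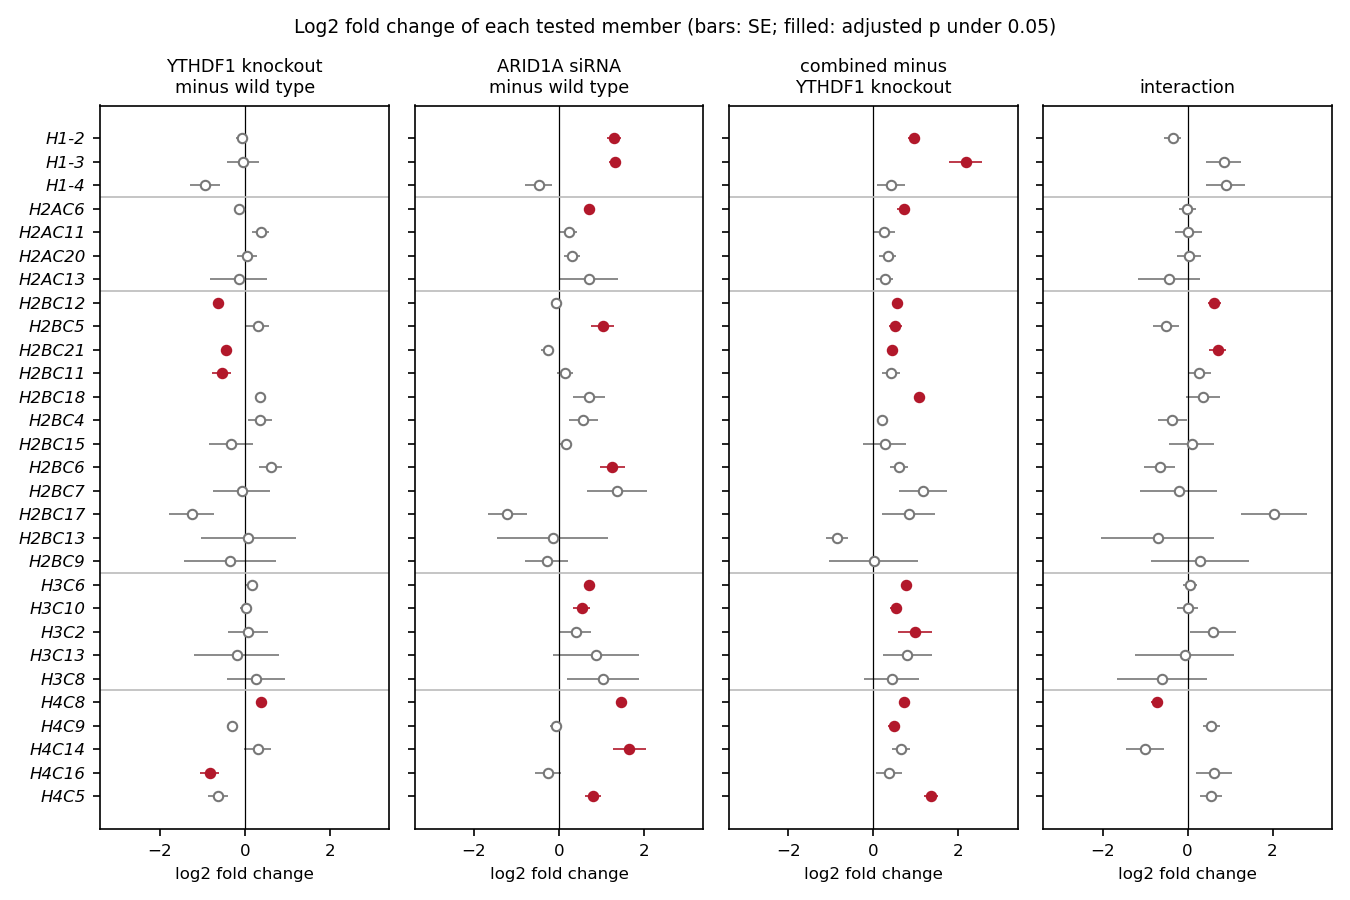
Log2 fold change of each of the 29 tested members in 3 comparisons and in the interaction; points are the edgeR estimates, bars the SE from the replicate spread, and filled points passed an adjusted p of 0.05. All filled points in the ARID1A siRNA panels lie to the right of 0, and H2BC12 is filled to the left of 0 in the YTHDF1 knockout panel.

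In YTHDF1-KO against WT, 1 of the 29 tested members rose and 4 fell, against 19.6% and 20.8% of all genes tested (edgeR's quasi-likelihood test). The median log2 fold change was -0.06 over the tested members (0.03 when scaled by library totals alone) and -0.01 over all genes. H2BC12 (chromosome 6, 27146418 to 27146798) read 37.7, 29.3 and 35.0 CPM in WT and 22.4, 21.8 and 21.8 in YTHDF1-KO, a log2 fold change of -0.63 ± 0.11 (SE, adjusted p = 9.69e-06). The knockout libraries lay below all WT libraries, and the call held in every alternative tried. None of the alternatives addressed the shared reads of H2BC12 named above. H2BC11 fell from 4.94 ± 0.803 to 3.38 ± 0.797 CPM (adjusted p = 0.0228), H2BC21 from 7.31 ± 0.666 to 5.42 ± 0.681 (adjusted p = 0.0229) and H4C16 from 1.74 ± 0.286 to 0.984 ± 0.229 (adjusted p = 0.0362). H4C8 rose from 3.55 ± 0.144 to 4.64 ± 0.665 CPM (adjusted p = 0.0383). The count of calls was 1 without YTHDF1-KO replicate 2, 2 without WT replicate 1 and 3 without YTHDF1-KO replicate 1. These 4 calls were all lost without YTHDF1-KO replicate 2 (adjusted p = 0.0990, 0.121, 0.151 and 0.0831 in that order). Each was also lost without 1 or more other libraries: H2BC11 without YTHDF1-KO replicate 1 (0.118) or WT replicate 3 (0.117), H2BC21 without WT replicate 1 or 2 (0.0528 and 0.0868) or YTHDF1-KO replicate 3 (0.0621), H4C16 without WT replicate 1 or 3 (0.130 and 0.0561) or YTHDF1-KO replicate 1 (0.0768), and H4C8 without WT replicate 1 or 3 (0.0874 and 0.0712) or YTHDF1-KO replicate 1 (0.193). Scaled by library totals, H2BC11, H2BC21 and H4C16 did not pass (0.0603, 0.0818 and 0.0624). With no filter on low counts H4C16 (0.0601) and H4C8 (0.0743) did not pass. H4C8 was also lost when only the 2 groups were fitted (0.0951) and without the genes of chromosomes 2 and 9 (0.0650).

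H2BC12 and H2AC12 start 331 bases apart on opposite strands, and of that pair H2AC12 had 44 counts in all 12 libraries and was not tested. There were 12 such divergent pairs of members with starts 219 to 357 bases apart. Both members were tested in 4 pairs, 1 in 4 pairs and neither in 4 pairs. H2BC17 was paired both with H3C12 (357 bases) and with H2AC17 (314 bases), which overlap on the same strand, so the pairs are not all separate places. In the H2BC4 and H2AC6 pair, H2AC6 rose with the siRNA against WT and H2BC4 had a log2 fold change of 0.57 without passing the test. In the H2BC11 and H2AC11 pair, H2BC11 fell in YTHDF1-KO against WT, whereas H2AC11 had a log2 fold change of 0.37 and did not pass. In some pairs the members had unequal counts, 969 and 10682 for H2BC4 and H2AC6. In others they were closer, 2005 and 1781 for H2BC11 and H2AC11. Both members had 0 counts in the H2AC25 and H2BC26 pair and in the H2AC1 and H2BC1 pair. The H2AC7 and H2BC7 pair held 0 and 267. H2AC7 overlaps another protein-coding gene on the same strand, as named above, so its 0 is not shown to be a low level.

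Within YTHDF1-KO cells, 13 of the 29 tested members rose and 0 fell with ARID1A siRNA (combined group against YTHDF1-KO, edgeR's quasi-likelihood test), against 12.5% and 10.9% of all genes tested. At an unadjusted p under 0.05 there were 14 rises and 0 falls, and with DESeq2 13 and 0. The median log2 fold change was 0.54 over the tested members and 0.01 over all genes, and 28 of the 29 had a positive value. Some of these values were below their SE, as in H2BC9 (0.01 ± 1.05), so their sign carries little. This comparison shares no library with si-ARID1A against WT, but both lack a named control siRNA. The 2 comparisons had 8 risen members in common (H1-2, H1-3, H2AC6, H2BC5, H3C6, H3C10, H4C5 and H4C8), 80.0% of the 10 in WT cells and 61.5% of the 13 in knockout cells. The same overlap was not counted over all genes, so it is not shown to be particular to the members. H2BC12, H2BC18, H2BC21, H3C2 and H4C9 passed in knockout cells and not in WT cells, and H2BC6 and H4C14 passed in WT cells and not in knockout cells. Without H1-3, H2BC7 and H3C13, 12 of 26 rose in knockout cells and 7 were in common.

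H1-2 read 13.8, 14.3 and 14.8 CPM in the YTHDF1-KO libraries and 32.5, 26.4 and 24.3 in the combined libraries (0.95 ± 0.13 SE, adjusted p = 1.48e-06). H2AC6 read 17.6, 19.6 and 15.7 CPM in YTHDF1-KO and 33.1, 25.0 and 28.9 in the combined group (0.72 ± 0.15, adjusted p = 5.26e-05). The combined libraries were all higher for both genes. H2BC12 read 22.4, 21.8 and 21.8 CPM in YTHDF1-KO and 36.7, 29.1 and 31.7 in the combined group (0.56 ± 0.10, adjusted p = 0.000121), a range that overlaps WT. H3C6 rose from 5.41 ± 0.671 to 9.16 ± 0.344 CPM (adjusted p = 0.00025) and H4C8 from 4.64 ± 0.665 to 7.67 ± 0.254 CPM (adjusted p = 0.000403). Among the members with few counts, H1-3, with the filter's limit named above, rose from 0.190 ± 0.108 to 0.875 ± 0.182 CPM (adjusted p = 0.00232) and H4C5 from 0.512 to 1.31 CPM (SE of the log2 fold change 0.17, adjusted p = 0.00279). The calls of H1-2, H1-3, H2AC6, H2BC12, H2BC18, H3C6, H4C5 and H4C8 held in every alternative in which they were tested, with the shared reads of H2BC12 named above. The other 5 calls (H2BC5, H2BC21, H3C10, H3C2 and H4C9) were each lost on leaving out any of 4 or 5 of the 6 libraries compared, 1 at a time, with adjusted p of up to 0.205 for H3C2. The count of calls was 8 without YTHDF1-KO replicate 2 or without combined replicate 3.

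In the combined group against WT, 12 of the 29 tested members rose and 0 fell, against 25.6% and 25.9% of all genes tested. Without H1-3, H2BC7 and H3C13, 11 of 26 rose. At an unadjusted p under 0.05 there were 14 rises and 0 falls, and with DESeq2 13 and 0. The comparison shares the WT libraries with those above. The median log2 fold change was 0.59 over the tested members and -0.01 over all genes (edgeR's quasi-likelihood fit). H1-2 had a log2 fold change of 0.89 ± 0.18 (SE, adjusted p = 7.12e-07), H4C8 of 1.11 ± 0.04 (adjusted p = 4.61e-07), H3C6 of 0.93 ± 0.09 (adjusted p = 5.06e-06) and H2BC18 of 1.43 ± 0.10 (adjusted p = 0.000155). H2BC18 read 0.974, 1.04 and 0.973 CPM in WT and 2.41, 2.58 and 3.05 in the combined group. H2AC6 (0.59), H2BC5 (0.82), H2BC6 (1.21), H1-3 (2.13), H2AC11 (0.62), H3C2 (1.06), H3C10 (0.58) and H4C14 (0.96) were the other log2 fold changes past the test. Of these, H2AC11 was lost without combined replicate 2 (adjusted p = 0.0713), H3C10 without combined replicate 1 (0.0566), H3C2 without WT replicate 2 (0.0573) and H4C14 without WT replicate 1 (0.0870) or combined replicate 2 (0.0966). H2BC12 did not pass (-0.07), at 32.5 ± 3.88 CPM against 34.0 ± 4.29 in WT.

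In the combined group against si-ARID1A, 1 of the 29 tested members rose and 1 fell, against 18.2% and 17.2% of all genes tested. The fall was in H1-2, which read 33.9, 34.9 and 41.4 CPM in si-ARID1A and 32.5, 26.4 and 24.3 in the combined group (-0.41 ± 0.15 SE, edgeR adjusted p = 0.00637). The groups did not overlap. The call was lost without si-ARID1A replicate 3 (adjusted p = 0.0578) or combined replicate 3 (0.0569). The rise was in H2BC18 (0.72 ± 0.39, adjusted p = 0.0442), and it was lost in 10 of 20 alternatives, among them leaving out si-ARID1A replicate 2 or 3 (0.235 and 0.106) or any 1 of the YTHDF1-KO or combined libraries (0.0501 to 0.155). No member passed without combined replicate 3, and 1 passed without any 1 of si-ARID1A replicate 3, combined replicate 1 or 2, or the YTHDF1-KO libraries. The median log2 fold change over the tested members was -0.05 (0.03 when scaled by library totals alone).

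The interaction, the change with ARID1A siRNA in YTHDF1-KO cells minus the change in WT cells, passed for 2 members in the positive and 1 in the negative direction, against 8.87% and 8.22% of all genes tested. H2BC12 had a change of 0.56 in knockout cells and -0.07 in WT cells (difference 0.63 ± 0.15 SE, edgeR adjusted p = 0.00178), in every alternative that was run. Its shared reads, named above, were not addressed by these alternatives. H2BC21 had 0.44 and -0.27 (difference 0.71 ± 0.20, adjusted p = 0.0219), a call lost without any 1 of si-ARID1A replicate 1 or 3, WT replicate 2, YTHDF1-KO replicate 2 or combined replicate 2 (adjusted p from 0.0509 to 0.0721). H4C8 had 0.73 and 1.45 (difference -0.72 ± 0.14, adjusted p = 0.0126), lost without YTHDF1-KO replicate 1 (0.0526). Without WT replicate 3 the interaction passed for 6 members. For the other 26 tested members the difference did not pass, so a call in one background and not in the other is not shown to differ for them.

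By position, the 34 members on chromosome 6 between 25726132 and 26285638 held 56.2% of the member counts and 14 were tested. Of these 14, 8 rose with the siRNA in WT cells and 8 in knockout cells, with median log2 fold changes of 0.92 and 0.72. Over all genes tested, 22.1% and 12.5% rose in these comparisons. H1-3, with the filter's limit named above, is among the 8 in both. The 21 members on chromosome 6 between 27125897 and 27893843 held 35.6% of the counts, and of the 9 tested 1 rose in WT cells and 3 in knockout cells, with medians of 0.14 and 0.43. This second stretch holds H2BC12 and H2BC11, and its median in YTHDF1-KO against WT was -0.31 with 2 falls, against 0.02 with 1 rise and 0 falls in the first stretch (edgeR, also 0 falls there at an unadjusted p under 0.05). The 11 members on chromosome 1 between 149782689 and 149887916 held 7.35% of the counts, and of the 5 tested 1 rose in WT cells and 2 in knockout cells. The 1 of 9 and 1 of 5 that rose in WT cells are below or near the 22.1% of all genes. In YTHDF1-KO against WT 20.8% of all genes fell and 19.6% rose, so the 2 falls among 9 are near that share. Whether the stretches differ was not tested.

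The genes that transcribe histone genes and process their messages were taken as a list of 30, all tested. E2F1, CCNE1 and CCNE2 are also in the list of S phase genes below. MCM2 is in both that list and the list of chaperones. The lists are therefore not separate sets of genes. With the siRNA in WT cells 18 fell and 2 rose, in YTHDF1-KO 8 fell and 1 rose, and with the siRNA in knockout cells 5 fell and 1 rose, with medians of -0.27, -0.06 and -0.09 (edgeR's quasi-likelihood test). Of all genes tested, 23%, 20.8% and 10.9% fell and 22.1%, 19.6% and 12.5% rose in these comparisons, with medians of -0.01, -0.01 and 0.01, and the same shares apply to the lists below. SLBP, which binds the stem-loop printed above, read 59.4, 65.1 and 64.9 CPM in WT, 64.2, 69.5 and 65.8 in YTHDF1-KO, 20.7, 20.5 and 19.4 in si-ARID1A and 29.3, 30.0 and 30.2 in the combined group. The libraries with the siRNA lay below all those without it, and si-ARID1A lay below the combined group. SLBP fell by 1.64 on the log2 scale in si-ARID1A against WT (SE 0.05, adjusted p = 1.55e-14) and by 1.16 in the combined group against YTHDF1-KO (adjusted p = 1.79e-11). The 2 changes differed by 0.49 ± 0.06 (adjusted p = 0.00159), and in YTHDF1-KO against WT SLBP did not pass (0.08, adjusted p = 0.432). NPAT, the co-activator of histone genes, stood at a mean of 22.2 CPM in WT and fell to 17.8 ± 0.426 in YTHDF1-KO (adjusted p = 0.012) and 16.9 ± 1.85 in si-ARID1A (adjusted p = 0.00228). In the combined group it stood at 20.5 ± 1.61 and did not pass against WT. The change of NPAT with the siRNA differed between knockout and WT cells (interaction 0.61, edgeR adjusted p = 0.0035), in every alternative that was run. NPAT was higher in the combined group than in si-ARID1A (0.29, adjusted p = 0.0283), a call lost in 5 of 20 alternatives. NPAT's fall in YTHDF1-KO was lost without WT replicate 2 (0.0561) and when scaled by library totals (0.0900). NCBP1, the large cap-binding subunit, fell in si-ARID1A (108 to 64.1 CPM, adjusted p = 1.38e-09), as did ERI1, an exonuclease that trims histone messages (27.8 to 17.2 CPM, adjusted p = 1.6e-06).

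**Figure D4:**
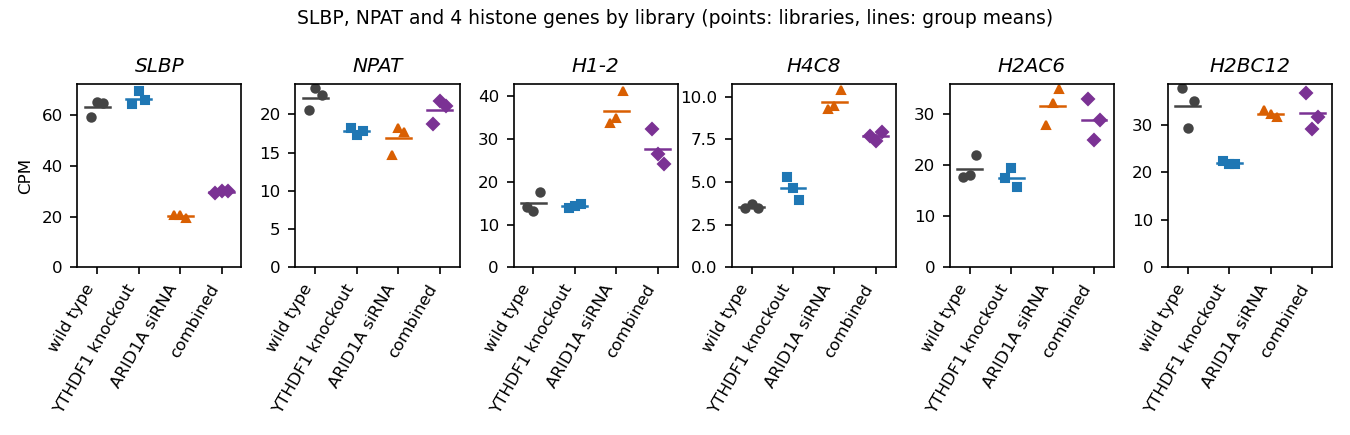
CPM of SLBP, NPAT and 4 histone genes in each library; points are libraries, lines group means, and each axis starts at 0. SLBP is lower in both groups with ARID1A siRNA (19.4 to 30.2 CPM against 59.4 to 69.5), where H1-2, H4C8 and H2AC6 are higher, and H2BC12 is lowest in the YTHDF1 knockout.

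Of 50 S phase genes, which make or copy DNA in the phase when histone genes are active, 42 fell and 1 rose in si-ARID1A against WT, with a median log2 fold change of -0.52 (edgeR's quasi-likelihood test), against 23% and 22.1% of all genes. RFC3, a clamp loader subunit, fell from 73.7 to 37.7 CPM (adjusted p = 1.55e-10) and MCM5, a helicase subunit, from 281 to 149 CPM (adjusted p = 9.45e-10). In YTHDF1-KO against WT 19 fell and 4 rose, against 20.8% and 19.6% of all genes, and in the combined group against YTHDF1-KO 10 fell and 1 rose, against 10.9% and 12.5%. The summed level of these genes was 4808 to 5247 CPM in WT, 4343 to 4524 in YTHDF1-KO, 3131 to 3707 in si-ARID1A and 3922 to 4190 in the combined group, while the summed histone level was highest in the groups with the siRNA. The part of the cell cycle in the histone changes was not tested.

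Histone chaperones, which carry histones to DNA, were tested for 24 of 25 listed genes: 14 fell and 1 rose in si-ARID1A against WT, 12 fell and 1 rose in YTHDF1-KO against WT, and 10 fell and 0 rose in the combined group against YTHDF1-KO (0 rises also at an unadjusted p under 0.05). The shares of all genes that fell were 23%, 20.8% and 10.9%. NASP, a carrier of H3 and H4, fell from 130 to 85.4 CPM in si-ARID1A (edgeR adjusted p = 5.82e-08) and SET from 609 to 330 CPM (adjusted p = 3.43e-10). Of the 11 tested replacement and variant histones, 7 fell and 2 rose in si-ARID1A, 3 fell and 2 rose in YTHDF1-KO, and 4 fell and 0 rose in the combined group against YTHDF1-KO (1 rise at an unadjusted p under 0.05 in edgeR), beside the same shares. H3-3B, a gene for the replacement histone H3.3, rose from 306.9 ± 27.4 CPM in WT to 498.7 ± 27.0 in YTHDF1-KO (adjusted p = 6.15e-08) and 492.7 ± 39.6 in si-ARID1A (adjusted p = 1.06e-07), and stood at 538.1 ± 16.7 in the combined group. H2AZ1, a variant H2A, fell from 276 to 178 CPM in si-ARID1A (adjusted p = 5.74e-07) and CENPA, the centromeric H3, from 43.9 to 25.4 CPM (adjusted p = 6.16e-07). These lists were chosen with results of these libraries known and describe them only.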

How the data were processed

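RNA was measured in 12 libraries of A549 cells, 4 groups of 3. Per the submitters' processing notes, the authors worked on GRCh38 with featureCounts 2.0.1, STAR 2.7.0d, edgeR 3.32.1 and Trim Galore 0.6.6, and they deposited 1 table of raw read counts per Ensembl gene. The annotation release and strand setting are not given in the sources used here. Of the 95091 values from 1 to 10, 71.5% were even (82.4% of 221 such values of the members), so both mates of a read pair appear to be counted and a count is not 1 fragment.

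Counts were fitted in R 4.3.3 with edgeR 4.0.16 (filterByExpr, TMM factors 0.912 to 1.055, two-sided quasi-likelihood F test, robust), with all 12 libraries in 1 fit and 1 coefficient per group. The fit held 18524 genes, 42093 were left out, and p-values were adjusted by Benjamini-Hochberg over all genes tested with a threshold of 0.05. The biological coefficient of variation was 9.44%. CPM use TMM-scaled totals, and SEs come from the replicate SDs of log2 CPM with a prior count of 2 (limma 3.58.1). The script was tested on simulated data.

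Full statistics were given for members past the threshold, up to 3 per class with the smallest p in each comparison, and companion lists by counts with up to 4 genes. SLBP, NPAT and the targets are always named. Models came from GENCODE 29 for 67 members and RefSeq for 2 (H3C2 and H3C3). The gene set and the lists were proposed with earlier results of these data known, and members were then taken by symbol. Alternatives were 2 other scalings, 2 other count filters, DESeq2 1.42.0, a replicate block, the 2 compared groups alone, chromosomes 2 and 9 left out, and each library left out.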

Additional observations from a re-analysis of the deposited data

Results flagged for a closer look

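The change with ARID1A siRNA differed between YTHDF1-KO and WT cells, by the interaction test of edgeR, for 2 of the 29 tested members in the positive and 1 in the negative direction, against 8.87% and 8.22% of all genes tested. H2BC12 had an interaction of 0.63 on the log2 scale (adjusted p = 0.00178), from 22.0 to 32.5 CPM in knockout cells and from 34.0 to 32.4 in WT cells. The limit from its shared reads, named above, applies here too. H2BC21 had 0.71 (adjusted p = 0.0219), from 5.42 to 7.34 CPM in knockout cells and from 7.31 to 6.08 in WT cells, and did not pass without si-ARID1A replicate 1 or 3, WT replicate 2, YTHDF1-KO replicate 2 or combined replicate 2 (0.0509 to 0.0721). H4C8 had -0.72 (adjusted p = 0.0126), from 4.64 to 7.67 CPM in knockout cells and from 3.55 to 9.70 in WT cells, and did not pass without YTHDF1-KO replicate 1 (0.0526).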

How the results depend on the processing

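Of the 45 calls of members over the 6 comparisons, 25 held under every alternative that gave a value, and none changed sign. Leaving out 1 library at a time gave 1 to 5 calls in YTHDF1-KO against WT (5 with all), 8 to 11 in si-ARID1A against WT (10), 10 to 13 in the combined group against WT (12), 8 to 13 against YTHDF1-KO (13), 0 to 3 against si-ARID1A (2) and 2 to 6 for the interaction (3, with 6 without WT replicate 3). With library totals 3 members passed in YTHDF1-KO against WT. In the combined group against si-ARID1A, 4 passed when only those 2 groups were fitted and 1 with no filter on low counts. A filter of 1 CPM in 3 libraries left H1-3 untested. The cause of these moves was not tested. Replicate numbers did not pair the libraries: deviations of libraries with the same number correlated at -0.04 to 0.03 over 18 pairs. The fit with a replicate block gave 5, 9, 12, 13, 2 and 3 calls in the order above, and no library correlated best with its own number in every other group (0 of 12). Scaling by library totals shifted the median of all genes in the combined group against WT by 0.14, to 0.13, where the members' median was 0.73. It moved the share of called genes that rose from 48.5% to 61.2% in YTHDF1-KO against WT, from 49.7% to 63.4% in the combined group against WT, from 53.5% to 63.5% against YTHDF1-KO and from 51.4% to 62.2% against si-ARID1A. Most members had few counts, which limits what could be tested.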
